A study of Arabidopsis thaliana with 12 samples.

Results

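The transcripts described here are those whose signal was lower in Arabidopsis leaves after formaldehyde gas at either of 2 concentrations. They were chosen on deposited log2 expression values by a rule with 3 conditions, with the control probe sets of the array left out. The highest of the 6 formaldehyde arrays had to lie at least 0.5 below the lowest of the 6 arrays without formaldehyde, all 6 formaldehyde arrays had to be above 4, and the means of the 2 groups without formaldehyde had to differ by less than 0.5. The rule found 150 of 22746 probe sets. A probe set is a group of short probes on the array that reads 1 transcript or a few alike. A single gene could be named for 62 of the 150 (41.3%), against 53.9% of the 13874 probe sets that passed the filter on low values described below. A further 6 read several genes and 82 were not listed in the gene table used here, so these 88 were not named.

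The plants were wild-type Arabidopsis thaliana of the ecotype Columbia, aged 7 weeks, which had stood for 72 h in constant light at 24 °C. Rosette leaves of 12 plants were profiled on 1 array each, in 4 groups of 3 plants. For 150 min, 1 group was kept out of the chamber, with formaldehyde in the room below 0.08 ppm. Another was in the chamber in clean air (below 0.04 ppm), a further group at 1 to 2 ppm (low exposure) and the last at 14 to 16 ppm (high exposure). No mutation or transgene was present in any group. The 3 plants of a chamber condition were in the chamber together, so the run and the condition cannot be told apart, and p-values measure only the spread between plants of 1 run.

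Formaldehyde is a small reactive aldehyde that binds to proteins and nucleic acids. Plants take it up through stomata, bind it to glutathione, oxidise it to formate and pass the carbon on through the folate pathway. Of the named genes in the set, many belong to other parts of leaf physiology. They include enzymes of the glucosinolates (sulfur compounds that Brassicaceae store against herbivores), proteases of the vacuole and the cell exterior, cell wall and sugar hydrolases, lectins, and membrane proteins. These groups were put together after the members were known, so they describe the set and carry no test. The 26 named members outside the groups and the 88 members without a single gene were not placed.

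The leaf label could be checked with few genes. The rubisco activase gene RCA, a marker of photosynthetic leaf cells, had group means of 14.75 to 15.12 (log2). Probe sets with a named gene existed for 5 of the 23 cell type markers, and for none of the 5 root markers. The trichome gene TRY had means of 5.76 outside and 5.33 in clean air, and of 5.48 after the low and 3.03 after the high dose. Its part in the members' values was not tested. AUR1, a gene of dividing cells, had 3.58, 3.34, 4.66 and 3.53 in the same order, the guard cell gene FMA 5.23 to 5.78 and the phloem gene SWEET11 12.07 to 13.04. Several control signals differed between the groups. The excess of 3' over 5' signal in the array's control probe sets for housekeeping RNAs (3' minus 5'), which is larger when RNA is degraded, was 1.08 to 1.15 outside, 1.17 to 1.27 in clean air, 1.42 to 1.50 at low exposure and 1.42 to 1.83 at high exposure (log2). The bioC spike-in signal was 8.63 to 8.85 at low exposure and 6.27 to 7.49 elsewhere. The part of these differences in the results below was not tested, except where a value is given. Since whole leaves were ground, fewer cells of a type and less RNA per cell cannot be told apart.

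The size of the falls was looked at first, as a description, because the rule itself used the contrast between exposed and unexposed plants. Per array, the median of the 150 members was 9.70, 9.96 and 9.86 outside the chamber and 9.52, 9.80 and 9.94 in clean air. It was 8.21, 8.54 and 8.47 at low exposure and 7.60, 7.94 and 8.11 at high exposure. The first plant at high exposure had the lowest median, and it also had the highest 3' minus 5' signal of the 12 arrays (1.83).

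Compared with clean air, the members were lower by a median log2 difference of -1.50 at low exposure and -1.96 at high exposure, which is 2.82-fold and 3.88-fold. Over all 13874 probe sets tested, the same medians were -0.01 and -0.10. At low exposure 125 of 150 members were at least 2-fold lower, 40 at least 4-fold and 9 at least 8-fold. At high exposure these counts were 141, 71 and 20. The falls ranged from 1.51-fold to 23.3-fold at low exposure and from 1.85-fold to 21.0-fold at high exposure. Clean air and the outside differed in the members by a median of -0.05, within the bounds of -0.47 and 0.49 that the rule left. Of the 150 members, 65 had a higher mean in clean air and 85 a higher mean outside.

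**Figure D1:**
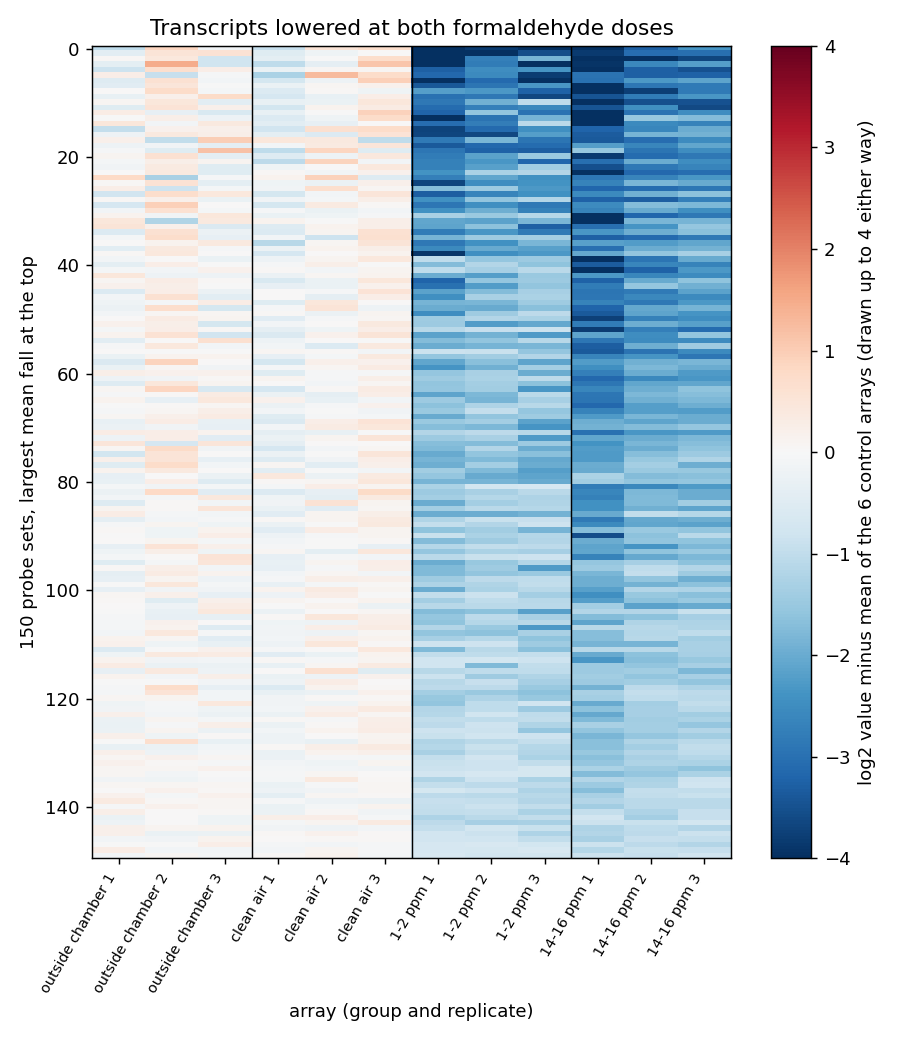
Log2 values of the 150 probe sets (rows, largest mean fall at the top) on the 12 arrays (columns, by group and replicate), each minus the probe set's mean over the 6 control arrays; colours stop at 4 in either direction. Blue fills the 6 formaldehyde columns at both doses, deepest in the first high exposure plant, whose median member lay 2.29 below the control mean.

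The margin of 0.5 cut through a dense range. Just inside it lay AT3G14067, AT1G69360 and AT5G24690, with gaps of 0.501, 0.509 and 0.513 between the highest exposed and the lowest control array. Just outside it, among genes that met both other conditions, lay AT4G34630, AT5G06610 and AT3G10260, with gaps of 0.498, 0.496 and 0.486. Within 0.1 inside the margin there were 40 probe sets, and within 0.1 outside it 58. The lowest control array was the first clean-air plant for 58 of the 150 members, more than any other array. The highest exposed array was a low exposure plant for 107 members and a high exposure plant for 43.

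Genes of glucosinolate synthesis and of methionine and sulfur metabolism made up 7 of the named members. BCAT4 encodes the aminotransferase that starts the chain elongation of methionine for aliphatic glucosinolates. It read 12.23, 12.74 and 11.75 outside, 11.62, 11.92 and 12.55 in clean air, 9.34, 9.99 and 10.64 at low exposure, and 8.30, 9.06 and 9.28 at high exposure. All 3 low exposure plants were below all 6 unexposed plants, and all 3 high exposure plants were lower still. This was 4.12-fold lower than clean air at low exposure and 8.87-fold at high exposure.

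AT2G25450 encodes a dioxygenase that hydroxylates the side chain of an aliphatic glucosinolate. Its values were 12.19, 12.55 and 12.16 outside, 11.48, 12.17 and 12.29 in clean air, 8.25, 9.70 and 9.84 at low exposure, and 10.08, 10.57 and 10.80 at high exposure. Here the order of the doses was the other way round, with the low exposure plants below the high exposure plants. The gene was 6.57-fold lower than clean air at low exposure and 2.82-fold at high exposure. UGT74B1, the S-glucosyltransferase of the core glucosinolate pathway, was 3.13-fold lower at low and 3.32-fold lower at high exposure, with overlapping values at the 2 doses.

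The other 4 genes of this group act on methionine, its oxidised or activated form, or a by-product of sulfation. MSRB5, a methionine sulfoxide reductase, read 10.50, 11.28 and 10.24 outside and 10.45, 9.76 and 11.20 in clean air. It read 8.72, 9.14 and 9.20 at low exposure and 7.31, 7.45 and 7.71 at high exposure, in 3 steps without overlap. MMT, which makes S-methylmethionine, was 1.61-fold and 2.49-fold lower than clean air at low and high exposure. HL, a HAL2-like phosphatase for the by-product of sulfation, was 2.65-fold and 2.29-fold lower, and AT3G25570, an S-adenosylmethionine decarboxylase of polyamine synthesis, 2.36-fold and 2.22-fold.

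Of the fixed list of 19 genes of methionine-derived glucosinolates, only BCAT4 and AT2G31790 (the glucosyltransferase gene UGT74C1) had a named and tested probe set. Across all probe sets tested against clean air, 11.4% were called lower and 11.8% higher at low exposure (23.2% together), and 30.1% lower and 22.8% higher at high exposure (52.9% together) (limma, Benjamini-Hochberg adjusted p under 0.05). AT2G31790, which is no member, was at 9.88 in clean air and 6.92 at high exposure, a log2 difference of -2.95 (SE 0.37, adjusted p = 7.88e-05). At low exposure its difference of -1.01 (SE 0.37) did not pass (adjusted p = 0.0714).

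Proteases were represented by 5 named members. AT3G14067, a subtilisin-like serine protease, read 10.64, 10.97 and 10.76 outside and 10.35, 10.55 and 10.97 in clean air. It read 9.59, 9.78 and 9.85 at low exposure and 6.90, 7.97 and 7.63 at high exposure. It was thus barely inside the rule at low exposure, at 1.84-fold lower than clean air, and 8.72-fold lower at high exposure. The serine carboxypeptidase-like gene scpl35 had the other shape, with 9.42, 9.20 and 9.37 in clean air, 7.05, 7.54 and 6.77 at low exposure and 6.82, 7.45 and 7.01 at high exposure. Its falls of 4.63-fold and 4.72-fold were nearly the same at both doses.

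The 3 other proteases were the cysteine proteases AT3G45310 (aleurain-like) and AT4G01610 (cathepsin B-like) and the vacuolar aspartic protease APA1. AT3G45310 was 2.36-fold lower at low exposure and 4.87-fold at high exposure. AT4G01610 was lower by 2.69-fold and 2.80-fold. APA1 had 13.76 to 14.05 in clean air, 12.93 to 13.11 at low exposure and 12.39 to 12.68 at high exposure, with no overlap between the 3 groups.

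Enzymes that act on the cell wall, on sugars or on surface lipids made up 6 members. AT1G05310, of the pectin methylesterase family, read 8.82, 7.62 and 8.51 outside, 7.28, 9.80 and 9.28 in clean air, 5.42, 6.0 and 4.76 at low exposure, and 5.59, 5.29 and 5.32 at high exposure. The exposed plants were alike at both doses, and the clean-air plants were spread. The fall was 10.5-fold at either dose, and 17.7-fold without the first clean-air plant. AT1G62660, a vacuolar invertase that splits sucrose, had 8.75, 9.13 and 9.69 in clean air, 6.44, 6.56 and 5.77 at low exposure, and 5.98, 6.62 and 7.08 at high exposure. It was 7.65-fold and 6.21-fold lower. The esterase genes of the GDSL type AT1G75900 and AT1G31550 were 6.02-fold and 2.95-fold lower at low exposure, and 6.98-fold and 7.55-fold lower at high exposure. AT4G34480, a glycosyl hydrolase, was lower by 1.84-fold and 4.90-fold, and AT3G09410, of the pectin acetylesterase family, by 2.35-fold and 3.64-fold.

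The largest mean fall of a named member was that of a lectin gene. AT1G52000, a jacalin-related lectin, read 9.44, 11.34 and 10.35 outside and 9.54, 11.00 and 11.18 in clean air. It read 5.10, 6.64 and 6.36 at low exposure and 5.24, 7.21 and 8.11 at high exposure. Every exposed plant was below every unexposed plant, but the plants of a group differed by up to 2.87 on the log2 scale. The fall was 23.3-fold at low exposure and 13.1-fold at high exposure, the latter 7.52-fold without the first and 20.3-fold without the third high exposure plant. JAL34, of the same lectin family, was 6.24-fold and 5.23-fold lower, and AT1G53070, of the legume lectin family, 2.15-fold and 3.04-fold.

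**Figure D2:**
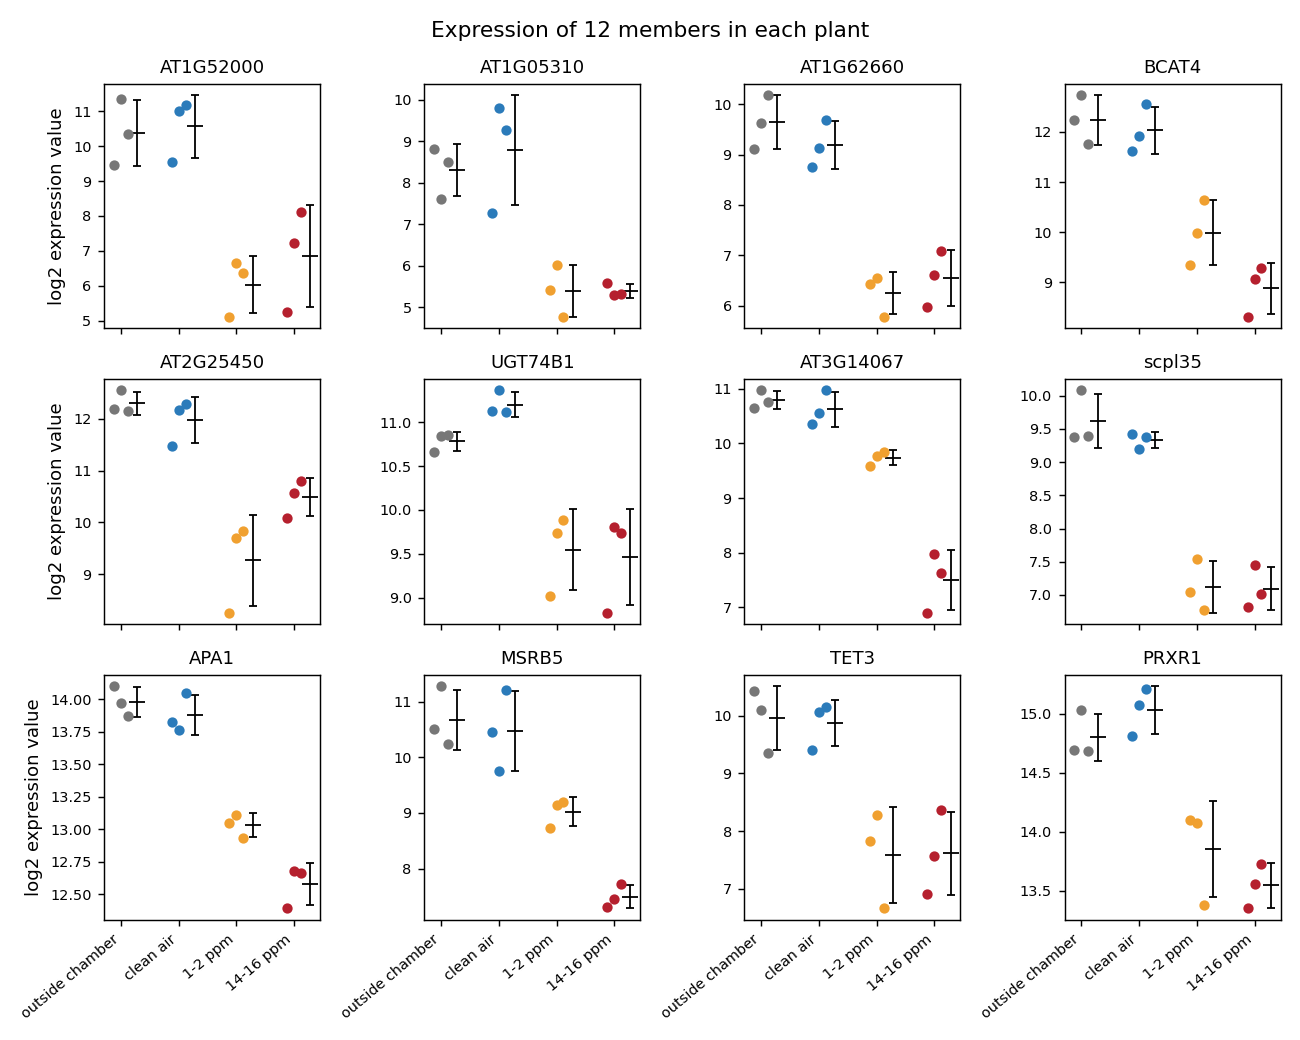
Log2 expression values of 12 members in each of 3 plants per group (points), with the group mean and SD (bars); each panel has its own axis. AT1G05310, scpl35 and TET3 lie at like levels at both doses, AT3G14067, BCAT4, APA1 and MSRB5 lie lower at 14-16 ppm, and AT2G25450 lies lower at 1-2 ppm.

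Membrane proteins contributed 5 members. AT1G10090 and AT1G69450 belong to the ERD4 family, named after a gene of the early response to dehydration. AT1G10090 read 8.40, 9.02 and 8.78 in clean air, 6.76, 6.67 and 5.72 at low exposure, and 4.91, 5.20 and 6.14 at high exposure, or 5.10-fold and 9.98-fold lower. AT1G69450 was 3.50-fold and 2.45-fold lower, and its difference between the doses did not pass (adjusted p = 0.133). The tetraspanin gene TET3 was lower by 4.89-fold and 4.80-fold, the tonoplast sugar transporter gene TMT2 by 2.04-fold and 3.27-fold, and AT5G65990, of an amino acid transporter family, by 1.97-fold and 3.82-fold.

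Families known from oxidation and detoxification held 5 members. The cytochrome P450 gene CYP71B24 was 4.19-fold lower at low exposure (6.39-fold without plant 3) and 9.06-fold lower at high exposure (5.17-fold without its first plant). UGT71B1, a glucosyltransferase, was 2.64-fold and 5.91-fold lower, and GSTU16, a tau class glutathione transferase, 3.02-fold and 2.91-fold. The class III peroxidase gene PRXR1 had 14.81 to 15.21 in clean air, 13.38 to 14.10 at low exposure and 13.35 to 13.73 at high exposure. AT1G71695, another class III peroxidase gene, was 2.68-fold and 4.38-fold lower.

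Among enzymes of primary metabolism, THIC, which makes the pyrimidine part of thiamine, was 3.22-fold lower at low exposure and 6.0-fold at high exposure. AT1G72810, of the threonine synthase family, was 1.98-fold and 6.23-fold lower. ALDH11A3, which oxidises glyceraldehyde 3-phosphate without phosphorylation, was 2.38-fold and 2.80-fold lower. The regulators were SKP2A, an F-box protein that marks proteins for degradation, and SIZ1, the ligase that attaches SUMO to proteins. SKP2A was 3.81-fold and 4.41-fold lower. SIZ1 was 2.09-fold lower at low exposure and 4.13-fold at high exposure, or 2.48-fold without the first high exposure plant, whose value of 4.65 stood below the 6.58 and 7.14 of the others.

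**Figure D3:**
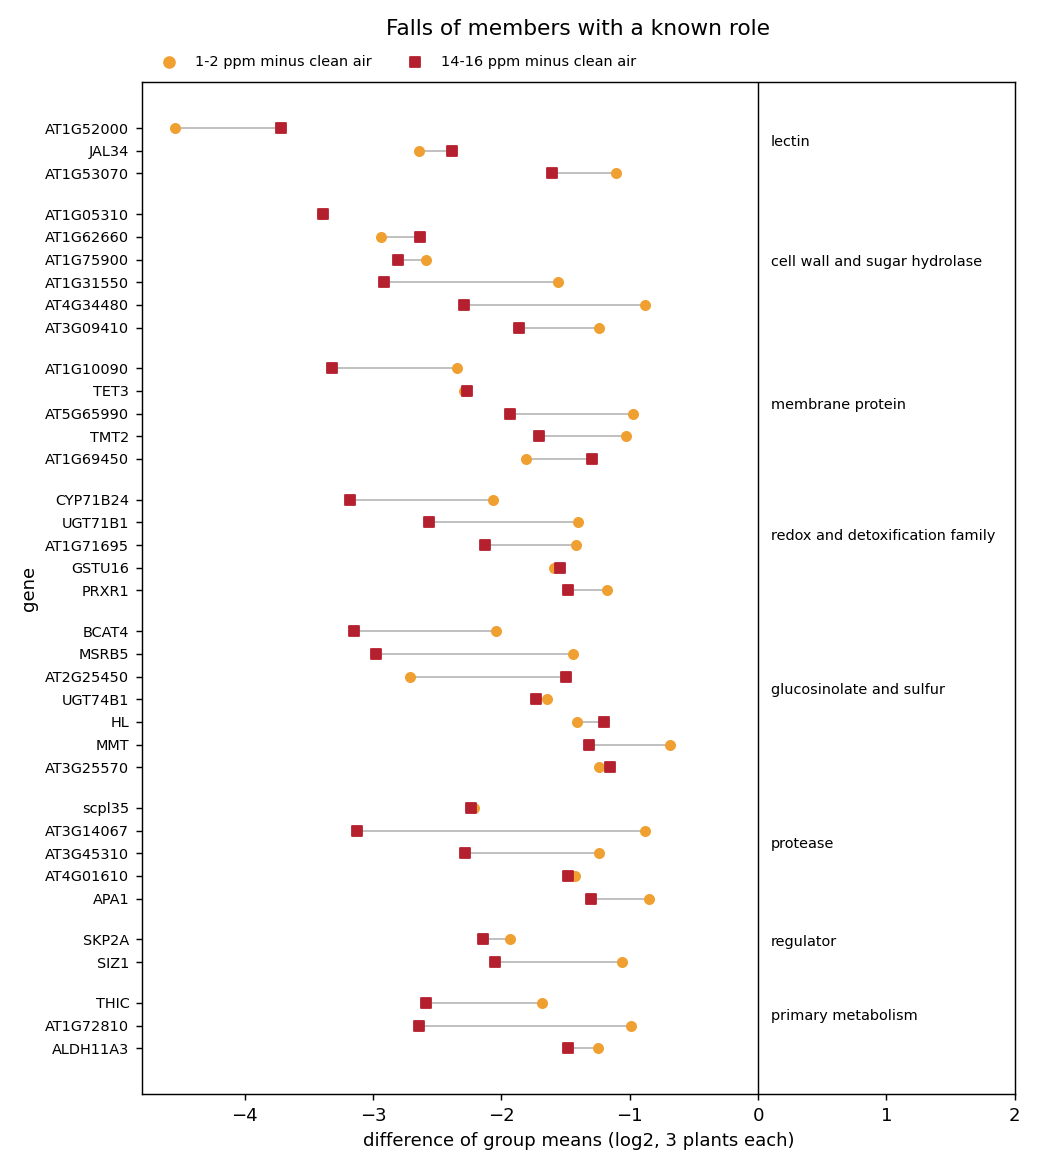
Differences of group means from clean air (log2, 3 plants each) for the 36 members with a role group, at 1-2 ppm (circles) and 14-16 ppm (squares), joined per gene. All lie left of 0 as the rule required, from -4.54 for AT1G52000 at 1-2 ppm to -0.69 for MMT at 1-2 ppm.

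The 26 other named members fell into no group. They were 1.67-fold to 9.78-fold lower at low exposure (median 2.38-fold) and 1.85-fold to 11.05-fold at high exposure (median 4.02-fold). AT2G43530, of a defensin-like family, was 9.78-fold and 6.99-fold lower, AT3G56080 6.89-fold and 11.05-fold, and AT1G59930 5.52-fold and 7.58-fold. The probe set of AT1G59930 is 1 of 10 members with a suffixed name (here x_at), so other transcripts may share its signal. AT1G19960 was 7.68-fold and 6.88-fold lower, but 3.11-fold at high exposure without the first plant and 10.6-fold without the second. AT3G28540, an AAA-type ATPase gene, was 4.40-fold and 6.80-fold lower, and 3.90-fold at high exposure without the first plant. AT3G26450 had 12.38 to 12.70 in clean air, 11.19 to 11.44 at low exposure and 10.64 to 11.33 at high exposure. The 88 members without a single gene spanned 1.51-fold to 15.4-fold at low and 1.91-fold to 21.0-fold at high exposure.

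High and low exposure were then compared directly, to ask whether the members were lower at the higher dose. The rule treated the 6 formaldehyde arrays alike, so it did not set which dose was lower, but it did keep both doses below the controls. The median high minus low difference of the members was -0.32, against -0.11 over all probe sets tested. It was -0.15 without the first high exposure plant. The mean was lower at high exposure for 108 members and lower at low exposure for 42. For 79 members the means were within 0.5 of each other, for 29 high exposure was lower by at least 1, and for 3 it was higher by at least 1.

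In the model fitted across all probe sets, 49 of the 150 members were lower at high than at low exposure and 6 were higher (limma, Benjamini-Hochberg adjusted p under 0.05). Over all probe sets 28.7% were called lower and 21.1% higher, 49.8% together, and the members' shares were 32.7% and 4.00%. The background includes transcripts raised by formaldehyde, which the rule left out, so the shares are not measured on like sets. The count of higher members was 2 without the second or the third high exposure plant and 10 without the first. The 3 high arrays lay below the 3 low arrays for 54 members (36.0%, background 33.7%), and above them for 7 (4.67%, background 25.2%). With the 3' minus 5' control signal as a covariate 34 members were lower and 11 higher.

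The named members with the lowest high minus low differences came from several of the groups. AT3G14067, the subtilisin-like protease, was lower by a log2 difference of -2.24 (SE 0.25, adjusted p = 4.43e-05). AT4G16180 followed at -1.86 (SE 0.22, adjusted p = 7.39e-05), AT1G19330 at -1.69 (SE 0.28) and AT1G72810, of the threonine synthase family, at -1.65 (SE 0.19). MSRB5 was at -1.53 (SE 0.35, adjusted p = 0.00377), AT4G34480 at -1.42 (SE 0.18), AT1G31550 at -1.36 (SE 0.24) and AT5G24690 at -1.22 (SE 0.23). All 8 were called, and in all 8 the 3 high arrays lay below the 3 low arrays. Each kept its call in the 20 alternative fits.

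BCAT4 was lower at high than at low exposure by -1.11 (SE 0.38, adjusted p = 0.0322), a call lost in 6 of 20 alternative fits, among them those without the first or second high or the second or the third low exposure plant (adjusted p up to 0.124). AT1G10090 (-0.97, adjusted p = 0.048) lost its call in 14 of 20, without 9 of the 12 plants among them, with adjusted p up to 0.161. AT3G09410 (-0.63, adjusted p = 0.0323) lost it in 7, among them those without the second or the third low or the first high exposure plant (up to 0.116), and AT1G71695 (-0.71, adjusted p = 0.0183) in 4, among them those without the second low or the first high exposure plant (up to 0.0781). APA1 was at -0.45 (SE 0.12, adjusted p = 0.00855) and lost it with spike-in scaling alone (adjusted p = 0.0763). The calls of UGT71B1 (-1.16), AT3G45310 (-1.05), THIC (-0.90), AT5G65990 (-0.96), TMT2 (-0.68) and MMT (-0.63) held in all 20.

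Only 2 named members were higher at high than at low exposure. The glucosinolate dioxygenase gene AT2G25450 was higher by 1.22 (SE 0.38, adjusted p = 0.0205) and AT5G39730 by 0.40 (SE 0.14, adjusted p = 0.03). In both the 3 high arrays lay above the 3 low arrays. Each call was lost in 5 of 20 alternative fits, with adjusted p up to 0.0748 and 0.0961, and the value of AT2G25450 was 0.71 without the first low exposure plant. AT2G25450 lost its call without that plant or the second or the third high exposure plant, and AT5G39730 without the second or the third plant of either dose. The other 4 probe sets called higher had no named gene, and the largest difference among them was 1.33 (SE 0.46).

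**Figure D4:**
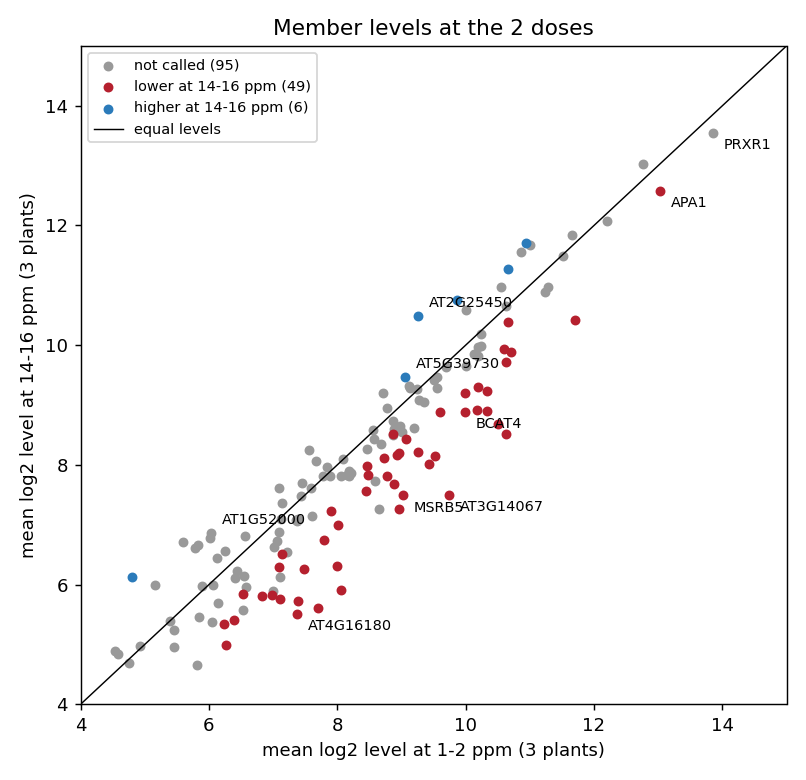
Mean log2 level of the 150 members at 1-2 ppm (horizontal axis) and 14-16 ppm (vertical axis), 3 plants each; the line marks equal levels and colours mark the limma call at adjusted p under 0.05. There are 49 red points below the line, 6 blue points above it and 95 grey points that were not called.

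Members that did not pass between the doses differed in how closely they were measured. For scpl35 the difference was -0.03 (SE 0.25), for AT4G01610 -0.06 (SE 0.20) and for UGT74B1 -0.09 (SE 0.27). For AT1G05310 it was 0.01 with an SE of 0.57, for AT1G19960 0.16 with 0.83, and for AT1G52000 0.82 with 0.75. The 3 lectin genes and both regulators did not pass. Per role group, 3 of 5 proteases, 3 of 6 wall and sugar enzymes, 3 of 7 glucosinolate and sulfur genes, 3 of 5 membrane proteins, 2 of 5 redox and detoxification genes and 2 of 3 enzymes of primary metabolism were lower at high exposure, where 28.7% of all probe sets were. The 3 lower genes of the glucosinolate and sulfur group were BCAT4, MMT and the reductase MSRB5. That group also held 1 gene that was higher, AT2G25450. These counts include the calls of AT1G10090, AT3G09410, BCAT4, AT1G71695, APA1 and AT2G25450, which were lost in some alternative fits.

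Relatives of the named members were counted among all named probe sets tested, by the letters of the gene symbol. Each probe set counts as 1 gene here, so a gene with 2 probe sets would count as 2. The counts include the members themselves, which are 2 of the UDP-glycosyltransferase genes and 1 of each other family. The rule required the members' falls against clean air, so their part in those counts is no result. The comparisons of low and high exposure share the clean-air plants, and over all probe sets 30.1% were lower and 22.8% higher at high exposure, and 11.4% lower and 11.8% higher at low exposure. No family was tested as a set. Of 13 serine carboxypeptidase-like genes (SCPL), 12 were lower at high exposure, and 3 were lower and 1 higher at low exposure. Of 25 UDP-glycosyltransferase genes (UGT), 11 were lower and 9 higher at high exposure, and 8 lower and 1 higher at low exposure. Of 15 genes with the stem CYP, which were not checked singly to be cytochrome P450 genes, 8 were lower and 2 higher at high exposure. Of the same 15, 3 were lower at low exposure. Both jacalin-related genes with the stem JAL were lower at both doses, and of 8 aldehyde dehydrogenase genes (ALDH) 5 were lower at each dose. Of 7 tetraspanin genes (TET) 3 were lower and 1 higher at high exposure and 1 lower at low exposure. Of 5 genes with the stem GSTU, 4 were lower and 1 higher at high exposure, and 1 lower at low exposure. Of 4 MSRB genes 2 were lower and 2 higher at high exposure, and 1 lower at low exposure. Of 2 TMT genes 1 was lower and 1 higher at high exposure, and 1 lower at low exposure. Of 2 probe sets with the stem SIZ, 1 was lower at high exposure, that of the member SIZ1, and none passed at low exposure. Whether the other also reads SIZ1 was not checked. Families with only the member tested are left out. With spike-in scaling, which moved the median of all probe sets against clean air from -0.01 to -0.18 at low and from -0.10 to -0.27 at high exposure, 12 SCPL and 11 UGT genes were again lower at high exposure, none of the SCPL genes was higher at low exposure, and 10 UGT genes were lower there. With that scaling 10 CYP genes were lower at high exposure, 2 TET genes were lower at low exposure and none was higher at high exposure. With quantile normalization 5 UGT genes were lower and 2 higher at low exposure, and 2 SCPL genes were higher there. Between the doses, with the deposited values, 8 SCPL, 8 UGT and 4 CYP genes were called lower at high exposure. Called higher were 9 UGT genes and 1 CYP gene. Of the ALDH genes 2 were lower and 2 higher, of GSTU 3 and 1, of MSRB 1 and 2, and of TET and of TMT 1 and 1. No JAL gene passed, and the SIZ probe set other than the member's was higher. Over all probe sets 28.7% were lower and 21.1% higher.

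Genes of 9 fixed pathway lists were set beside the members. Of the 106 listed genes 26 were tested, and BCAT4 was the only member among them. Of 6 one-carbon and folate genes, 5 were lower at high exposure, and 2 were lower and 1 higher at low exposure. The folate cyclo-ligase gene 5-FCL was lower at both doses, by -0.76 (SE 0.19, adjusted p = 0.0161) and -1.02 (SE 0.19, adjusted p = 0.000905), as was AT3G12290, a gene of folate interconversion, by -0.61 (SE 0.14, adjusted p = 0.0108) and -0.56 (SE 0.14, adjusted p = 0.0053). Neither met the rule. All 3 genes of the sucrose and SWEET list were lower at high exposure and 1 at low exposure. That was the sugar exporter gene SWEET13, which went from 8.15 in clean air to 3.83 and 3.06, below the level of 4 that the rule asks for.

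The other lists were not tested as sets, and their counts against clean air stand beside the same shares over all probe sets. All 3 Calvin cycle genes tested (PRK, RCA and SBPASE) were lower at high exposure, 2 of them with quantile or spike-in scaling, and none at low exposure. Of 3 sulfate assimilation genes 2 (APS3 and APS4) were lower at low exposure and none at high exposure. Of 3 auxin and cell expansion genes 2 were lower at high exposure and none at low exposure, and so were both iron deficiency genes. Of 3 cold and dehydration genes 1 was lower at low exposure and 1 higher at high exposure, and the clock gene GI passed in neither. With spike-in scaling 1 sulfate assimilation gene, all 3 auxin and cell expansion genes and all 6 one-carbon genes were lower at high exposure. No one-carbon gene was higher at low exposure with that scaling, and 2 cold and dehydration genes were lower there. Between the doses, with the deposited values, all 3 Calvin cycle genes and both iron deficiency genes were lower at high exposure. So were 2 auxin and cell expansion genes, 3 one-carbon genes and 2 genes of the sucrose and SWEET list. Higher at high exposure were all 3 cold and dehydration genes and 1 sulfate assimilation gene, and GI did not pass. Over all probe sets 28.7% were lower and 21.1% higher.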

How the data were processed

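Per the submitters' processing notes, the authors made the deposited values with GCRMA, which corrects background and normalizes across arrays; the sources used here give neither its options nor its version. The deposited values are taken as log2 from their range, with a lowest value of 2.11. Arrays carry no read depth, and 3 arrays per group limit the precision. No 2 arrays were identical, and arrays of a group correlated at r between 0.985 and 0.996 over probe sets. Members, role groups and lists were chosen with earlier results of these data known.

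A probe set was tested if above 4 on at least 3 of 12 arrays (13874, among them all 150 members), with 64 control probe sets left out. A linear model with a mean for each of the 4 groups was fitted with limma 3.58.1 in R 4.3.3 (lmFit, eBayes with a trend). A call is a Benjamini-Hochberg adjusted p under 0.05 over all probe sets tested. Contrasts that the rule used are described for members without a test, apart from the family counts, which include members. On simulated data for high against low exposure, with 13874 probe sets and 100 changed at each size, 55% of log2 changes of 1 and 86% of log2 changes of 2 were recovered, with 9 false calls. The changed probe sets were few and were picked among those with higher mean levels, whereas 49.8% of probe sets were called in the data. The rates need not hold for the data. Figures were drawn with matplotlib 3.10.9.

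Genes were named from the array's gene table, with symbols updated through the RefSeq annotation of TAIR10.1. Among members with 1 gene, those named by rule were the 15 largest falls, the 8 lowest and 8 highest high minus low differences, list members, up to 4 per keyword class, the genes nearest the margin, and the 3 highest mean levels. The keyword classes matched 12 members, some of them wrongly (THIC and BCAT4, for example), and were replaced by role groups. Other names were chosen after their values were seen. Promoter and protein sequences were not used here.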

Additional observations from a re-analysis of the deposited data

How the results depend on the processing

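The set depends on its thresholds: a margin of 0.25 gave 372 members and a margin of 1 gave 24. Leaving out 1 array gave 155 to 220 (220 without the first clean-air plant). Without 1 unexposed plant 133 to 144 of the 150 members stayed, and without 1 exposed plant all 150 did. Scaling to the spike-in controls other than bioC gave 152 members, of which 104 were among the 150, and quantile normalization 132, of which 126 were. The count of members lower at high than at low exposure was 34 to 50 without 1 array and 34 to 58 in all alternative fits. The count of higher members was 3 with no filter, 10 with the replicate block, 19 with array weights, 11 with the 3' minus 5' covariate, and 2 to 10 without 1 array. With the replicate block 48 members were lower. The labels give no shared batch behind a replicate number, and same-numbered arrays deviated together in no steady way (r from -0.33 to 0.33 over 18 pairs, above 0.1 in 8), so the numbers were not taken as pairs. The median high minus clean air difference was -1.74 to -2.10 without 1 array, and the median clean air minus outside difference 0.21 with spike-in scaling and -0.13 to 0.07 without 1 array. The cause of these shifts was not tested. No named member reversed a called direction.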
